A study of Mus musculus with 4 samples.

Results

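The protein-coding genes that lie around Meis2 on mouse chromosome 2 were examined in otic vesicles, the epithelial sacs that form the inner ear. The set held every protein-coding gene of the deposited table whose first coordinate falls between 112000000 and 121000000 on chromosome 2 (GRCm38), with Meis2 itself left out, which gave 101 of the 34866 genes listed. Position alone defined membership, not measured levels, but the set was chosen with earlier results of these data known. RNA came from embryos of strain C57/BL6 at embryonic day 11.5, with 2 libraries of wild-type embryos (WT 1 and WT 2) and 2 of Meis2 mutants (KO 1 and KO 2). The mutant allele, any Cre driver and the number of embryos or vesicles pooled per library stay unnamed: not given in the sources used here. No agent or treatment is named for either group. Nothing in the labels says that the libraries of a genotype came from separate embryos, so a p-value here measures only how far single libraries scatter, and that scatter may be technical. Levels are in TPM, each library's transcript abundances per transcript length scaled to a fixed total, which keeps no sequencing depth. Where 4 values are given in library order, they are those of WT 1, WT 2, KO 1 and KO 2.

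Genes for developmental transcription factors often sit in gene-poor stretches of chromosome that hold distant enhancers, and such enhancers can also act on a neighbouring gene. Meis2, a homeobox gene of the TALE class, is of this kind. Neighbours of a mutated gene are also inherited together with it, because they are closely linked on the chromosome. The members have no shared function: they include mitotic regulators, secreted signals, chaperones, trafficking proteins and a cluster of olfactory receptor genes.

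Meis2 itself (ENSMUSG00000027210.20, 115863064 to 116065839, minus strand) stood at 79.0, 88.7, 73.2 and 76.6 TPM in library order. The mutant libraries lay below the wild-type ones, by a log2 difference of -0.16 (standard error, SE, 0.087; limma adjusted p = 1.00). A gene-level value does not show whether part of the gene is missing, so it does not check the genotype labels. All 14 otic epithelium markers looked up were found, and their summed level was 1746 and 1587 TPM in WT 1 and WT 2 and 1310 and 1411 TPM in KO 1 and KO 2. Of these markers 11 were lower and 3 higher in KO, and 0 passed the threshold. RNA of other cell types was present too: marker sums ran from 904 to 1474 TPM for periotic mesenchyme, from 407 to 1076 TPM for neurons, from 256 to 316 TPM for endothelium and from 10870 to 26030 TPM for erythroid cells. In such bulk samples fewer cells of a type and less RNA per cell cannot be told apart.

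Promoter sequences were read beside the expression values. RefSeq promoter windows of GRCm38.p6, from 250 bases before to 50 after a gene's start, were found for 88 of the 101 members (102 windows). TGACAG is the core hexamer that Meis proteins prefer in DNA, and it was searched on both strands. It occurred in 16 member windows (15.7%), which belong to 15 genes, against 19.2% of all 32851 windows of the same length. The stretches below show the part of a window that lies before the start and outside annotated exons, for 4 expressed members with the hexamer and for Fam98b, the most abundant of the genes nearest to Meis2, which has none. Capitals mark TGACAG or, on the other strand, CTGTCA.
Dll4, chr2:119325565-119325783, plus strand: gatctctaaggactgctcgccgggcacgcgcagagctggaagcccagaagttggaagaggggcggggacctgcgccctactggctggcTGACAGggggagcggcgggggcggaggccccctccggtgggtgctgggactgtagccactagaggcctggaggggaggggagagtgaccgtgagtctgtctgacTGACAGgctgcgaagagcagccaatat
Eif2ak4, chr2:118388367-118388616, plus strand: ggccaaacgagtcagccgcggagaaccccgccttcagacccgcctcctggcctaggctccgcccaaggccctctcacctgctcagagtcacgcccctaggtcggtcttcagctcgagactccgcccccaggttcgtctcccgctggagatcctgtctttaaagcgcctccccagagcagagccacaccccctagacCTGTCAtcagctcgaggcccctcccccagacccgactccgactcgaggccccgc
Vps18, chr2:119288492-119288739, plus strand: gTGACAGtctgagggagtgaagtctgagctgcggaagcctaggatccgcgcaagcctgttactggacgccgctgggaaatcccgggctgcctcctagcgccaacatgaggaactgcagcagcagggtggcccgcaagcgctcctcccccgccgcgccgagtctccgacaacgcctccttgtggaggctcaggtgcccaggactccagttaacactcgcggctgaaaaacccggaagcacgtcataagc
Ndufaf1, chr2:119662835-119663084, minus strand: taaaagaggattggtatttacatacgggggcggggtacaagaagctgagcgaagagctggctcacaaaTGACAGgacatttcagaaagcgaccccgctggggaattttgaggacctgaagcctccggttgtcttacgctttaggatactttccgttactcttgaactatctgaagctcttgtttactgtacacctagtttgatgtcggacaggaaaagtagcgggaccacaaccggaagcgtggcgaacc
Fam98b, chr2:117249489-117249738, plus strand: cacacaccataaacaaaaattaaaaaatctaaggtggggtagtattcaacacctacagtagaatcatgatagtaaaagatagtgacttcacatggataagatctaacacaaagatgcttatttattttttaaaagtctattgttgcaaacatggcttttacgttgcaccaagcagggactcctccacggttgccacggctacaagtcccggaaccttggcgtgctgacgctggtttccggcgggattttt
The Dll4 stretch, before the gene of a Notch ligand, held 2 copies and the other 3 marked stretches 1 each. A match of letters is a description, not a binding site.

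Levels of these genes were close between genotypes. Dll4 was at 3.27, 2.89, 3.20 and 2.99 TPM in library order, so the genotypes overlapped (log2 difference 0.006, SE 0.18). Eif2ak4, the kinase GCN2 that senses amino acid shortage, was at 18.5 TPM in both WT libraries, at 18.3 in KO 1 and at 17.3 in KO 2 (-0.05, SE 0.094). Vps18, a subunit of vesicle tethering complexes, was at 16.9 and 17.9 TPM in WT 1 and WT 2 and at 18.7 and 17.7 TPM in KO 1 and KO 2. Ndufaf1, an assembly factor of respiratory complex I, followed the replicate number instead of the genotype, with 30.3 and 30.8 TPM in the libraries numbered 1 and 25.3 and 26.2 TPM in those numbered 2. Over the 10 tested members with the hexamer the median log2 difference was 0.002, with 5 higher and 5 lower. Over the 50 tested members with a window and no hexamer it was also 0.002, with 26 higher and 24 lower.

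The neighbourhood of Meis2 is sparse. The nearest member, BC052040, ends 84.3 kb from it, and the next ones lie 813 kb away or more. BC052040 is the mouse form of CDIN1, a nuclease that partners the Cdan1 product, and Cdan1 is itself a member at the far edge of the window. BC052040 (ENSMUSG00000040282.13, 115581716 to 115778768) was at 17.8, 15.3, 16.1 and 15.9 TPM in library order. The KO values lay between the WT values, and the log2 difference was -0.04 (SE 0.12, 95% interval -0.34 to 0.26, limma adjusted p = 1.00). Cdan1, needed for normal red cell maturation, was at 11.0, 14.2, 10.7 and 11.4 TPM in library order (-0.16, SE 0.16). Erythroid markers differed among the same libraries, from 10870 TPM in WT 1 to 26030 TPM in WT 2, and their part in the Cdan1 values was not tested. The Cdan1 gene model also overlaps Ttbk2 on the same strand and Stard9 on the other.

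On the lower-coordinate side the next members are Dph6, Zfp770, Aqr and Actc1. Dph6 (ENSMUSG00000057147.13, 114516416 to 114654964), an enzyme of diphthamide synthesis on elongation factor 2, was at 15.5 and 15.0 TPM in WT and at 14.7 and 14.5 TPM in KO. All KO values were lower, but by little (-0.06, SE 0.098, 95% interval -0.32 to 0.20). Aqr, a helicase of the spliceosome, was likewise lower in both KO libraries, with 43.3 and 43.1 TPM in WT and 41.5 and 42.2 TPM in KO (-0.05, SE 0.072). Zfp770, a zinc finger gene, was at 11.6 and 10.8 TPM in WT and 12.0 and 11.4 TPM in KO. Actc1, the actin of heart muscle, differed more between the KO libraries than between genotypes and is described below.

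On the higher-coordinate side lie Tmco5, Spred1, Fam98b, Rasgrp1 and Thbs1. Tmco5, a coiled-coil protein gene, was listed at 0 in all 4 libraries, and Rasgrp1, an activator of Ras, stayed between 0.30 and 0.46 TPM. Spred1 (ENSMUSG00000027351.14, 117121374 to 117182279), an inhibitor of Ras signalling downstream of growth factor receptors, was at 50.2, 40.8, 49.2 and 45.6 TPM in library order. Its KO values lay inside the WT range (0.06, SE 0.12, 95% interval -0.26 to 0.39). Fam98b (ENSMUSG00000027349.5, 117249739 to 117271540), part of the tRNA ligase complex, was at 121.6 and 108.9 TPM in WT and 119.2 and 113.1 TPM in KO, again inside the WT range (0.01, SE 0.085, 95% interval -0.21 to 0.24). The 95% intervals were -0.235 to 0.145 for Aqr and -0.232 to 0.361 for Zfp770. For the tested genes within 2 Mb other than Actc1 the intervals held no doubling or halving on this scale. That of Actc1 was wide, -0.994 to 0.881. At its low level this scale understates changes in TPM, so a halving or doubling of its TPM is not excluded. The intervals rest on the scatter of single libraries, which may be technical, and do not show that the levels were equal.

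**Figure D1:**
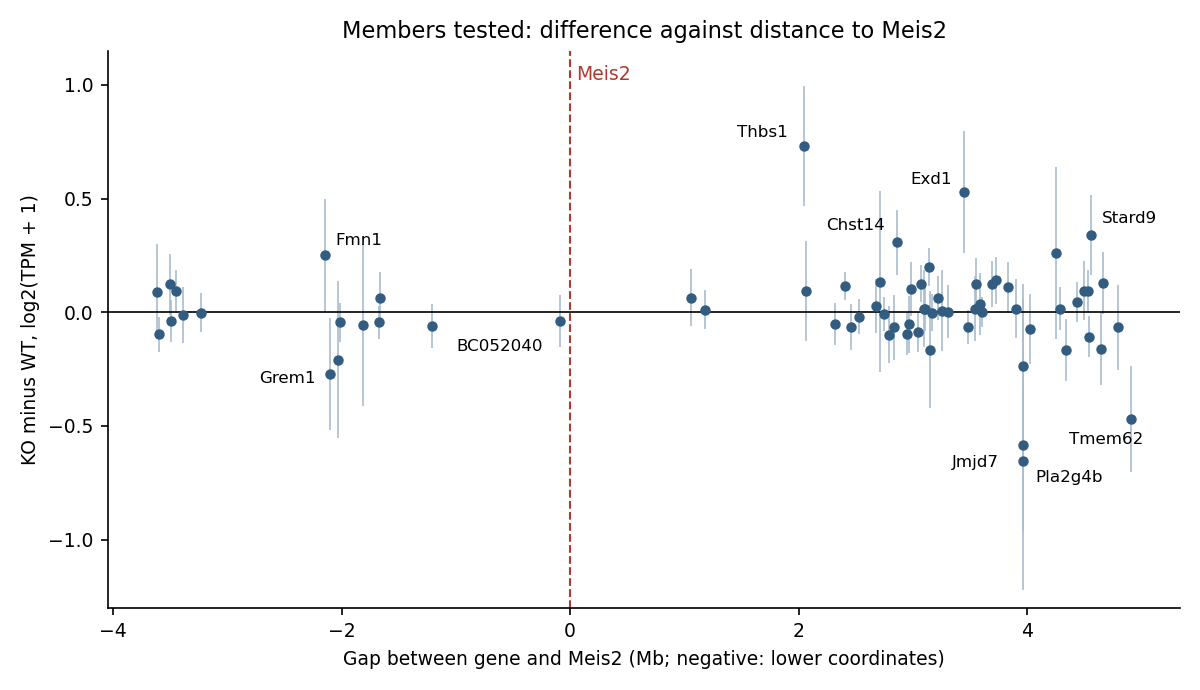
Log2(TPM + 1) difference between KO and WT (vertical axis, mean of 2 libraries minus mean of 2; bars are 1 SE from limma) against the gap in Mb between each tested member and Meis2 (horizontal axis, negative for lower coordinates). The 7 tested members within 2 Mb lie between -0.06 and 0.06, and the largest differences are those of Thbs1 at 2.05 Mb and Jmjd7 at 3.96 Mb.

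Across the whole window 69 members had a mean of at least 1 TPM and were tested together with all 14496 such genes. None of the 69 passed the limma threshold of 0.05 after Benjamini-Hochberg adjustment (0% of all genes passed), and 1 had an unadjusted p under 0.05, against 3.5% of all genes. The median difference of the members was 0.006, against 0.035 for all genes tested, 0.037 for the 1018 other coding genes of chromosome 2 and 0.036 for the 12415 coding genes of other chromosomes. Of the 69 members 37 were higher and 32 lower (53.6% higher, against 61.6% of all genes). This split depends on scaling: with median-of-ratios scaling 27 were higher and 42 lower (51.7% of all genes higher), and with quantile normalization 26 and 43 (50.2%). WT and KO did not overlap in 12 members that were higher in KO, against 19.2% of all genes, and in 11 that were lower, against 10.5% of all genes. A difference of at least 0.5 in either direction occurred in 4 members (5.8%), Thbs1, Exd1, Jmjd7 and Pla2g4b, against 4.81% of all genes. Among coding genes alone the share was 2.75% for the rest of chromosome 2 and 2.87% for other chromosomes. Jmjd7 and Pla2g4b belong to a group of overlapping genes with uncertain values, described below. These are descriptions of the list and carry no test.

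Single libraries were also compared with each other. The median size of the difference over the 69 members was 0.072 for KO 1 minus WT 1 and 0.125 for KO 2 minus WT 2. Within a genotype it was 0.129 for the WT libraries and 0.122 for the KO libraries, which differ in replicate number as the libraries of the first 2 comparisons do not.

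**Figure D2:**
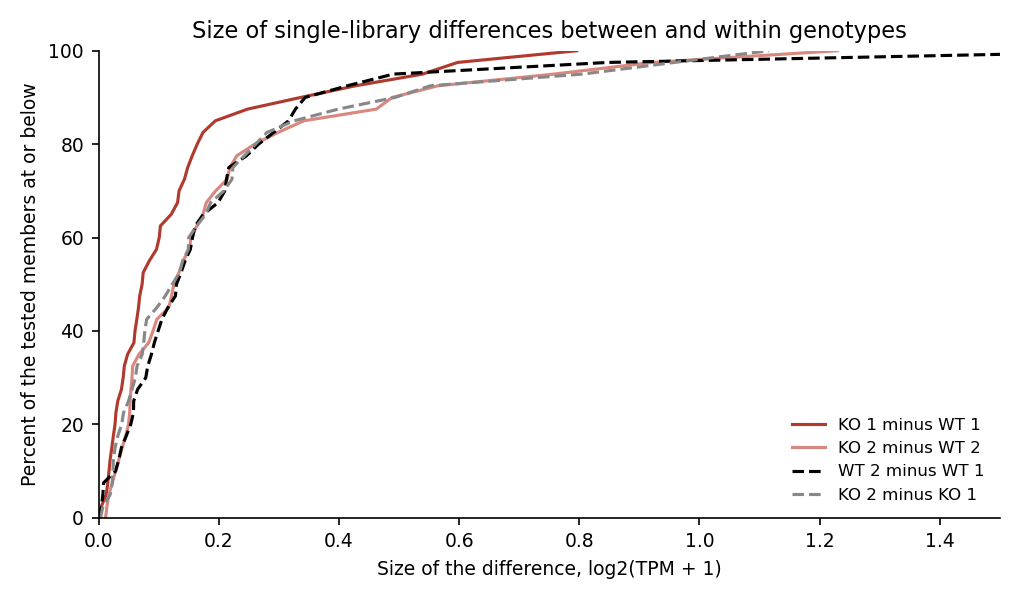
Cumulative share of the 69 tested members (vertical axis, percent) by the size of the difference between 2 single libraries (horizontal axis, log2(TPM + 1)). Solid lines compare KO with WT of the same number and dashed lines compare libraries of 1 genotype; the line of KO 2 minus WT 2 runs along the within-genotype lines, and that of KO 1 minus WT 1 has the smallest median, 0.072.

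The differences were also set against distance to Meis2. Within 2 Mb the 7 tested members had a median of -0.04, with 3 higher and 4 lower. Between 2 and 4 Mb the 49 tested members had a median of 0.006 and ran from -0.65 (Jmjd7) to 0.73 (Thbs1). Beyond 4 Mb the 13 tested members, all on the higher-coordinate side, had a median of 0.016. Across the 69 genes the rank correlation of the difference with distance was -0.012, and that of its size with distance was 0.23. The genes share the same 4 libraries. The first correlation was 0.24 without WT 2 and -0.17 without WT 1. The size of the difference between WT 2 and WT 1 had a rank correlation of 0.17 with distance over the 69 genes. Size also ran against level (rank correlation -0.31 with mean TPM).

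Among secreted signals and receptors, Thbs1 had the largest difference, which was also the largest of the 69 tested members. It encodes thrombospondin 1, a matrix glycoprotein that activates latent TGF-beta and restrains vessel growth. Thbs1 (ENSMUSG00000040152.8, 118111876 to 118127133) was at 63.7, 45.3, 111.3 and 72.6 TPM in library order. Both KO libraries lay above both WT libraries, and KO 2 was closer to WT 1 than to KO 1. The WT mean was 54.5 ± 13.0 TPM and the KO mean 91.9 ± 27.4 TPM (SD over 2 libraries), which gives 0.73 on the log2 scale (SE 0.27, 95% interval 0.03 to 1.43). It was the 1 member that passed the unadjusted level, which 2.09% of all genes passed in this direction, and its adjusted p from limma over all genes was 1.00. The difference was 0.43 without KO 1, 1.04 without KO 2, 0.97 without WT 1 and 0.49 without WT 2. With the replicate number as a block it stayed at 0.73, with a limma adjusted p of 0.41. Thbs1 is also made by mesenchyme and endothelium. Of 13 mesenchyme markers 11 were higher and 2 lower in KO and none was at 0 in all libraries, with sums of 1064 and 904 TPM in WT and 1474 and 990 TPM in KO. Of 10 endothelial markers 8 were higher and 2 lower and none was at 0 in all libraries, with sums of 256 and 281 TPM in WT and 316 and 257 TPM in KO. Both sums were highest in KO 1, as Thbs1 was, and their part in the Thbs1 difference was not tested.

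The other members of the signalling list were closer between genotypes or low. Of its 18 members in the window 9 were tested, 6 higher and 3 lower, with a median of 0.06 and 0 past the adjusted threshold. Tyro3, a receptor tyrosine kinase for Gas6 and protein S, was at 33.1 and 28.5 TPM in WT and 34.6 and 33.4 TPM in KO, higher in both KO libraries (0.14, SE 0.10). Grem1, a secreted BMP antagonist, was at 1.61 and 1.86 TPM in WT and 1.54 and 1.01 TPM in KO, lower in both (-0.27, SE 0.25). Bmf, a pro-apoptotic BH3 protein, was at 41.4, 47.0, 43.9 and 40.5 TPM in library order, with overlapping genotypes. Among the 9 untested members of the list, Plcb2, a phospholipase of receptor signalling named after its values were seen, was at 0.76 and 0.94 TPM in WT and 0.61 and 0.46 TPM in KO.

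Cell division genes were among the most abundant members. All 9 in the window were tested, 4 higher and 5 lower, with a median of -0.009 and a range from -0.11 to 0.13. Knstrn, a kinetochore and spindle protein, was at 123.7, 113.2, 117.5 and 117.7 TPM in library order. Both KO values lay inside the WT range. Bub1b, which encodes the spindle checkpoint kinase BubR1, was at 105.4 and 102.8 TPM in WT and 107.8 and 98.0 TPM in KO. Nusap1, a spindle microtubule binder, was at 77.0 and 71.4 TPM in WT and 88.5 and 74.0 TPM in KO, so that KO 2 lay between the WT libraries. Haus2, a subunit of the augmin complex that branches spindle microtubules, was the 1 gene of these 9 whose genotypes did not overlap (10.5% of all genes were lower without overlap), with 20.5 and 20.9 TPM in WT and 19.5 and 18.7 TPM in KO (-0.11, SE 0.090).

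Genes of translation, RNA and protein processing numbered 12 tested members, with 5 higher and 7 lower and a median of -0.029. The genotypes did not overlap in 1 that was higher and 4 that were lower, against 19.2% and 10.5% of all genes. Srp14 (ENSMUSG00000009549.14, 118475850 to 118479711), a subunit of the signal recognition particle, was the most abundant member. It was at 177.3 and 171.2 TPM in WT and 190.3 and 187.1 TPM in KO, higher in both KO libraries by a small step (0.12, SE 0.063; limma adjusted p = 1.00). Nop10, a subunit of the ribonucleoprotein that pseudouridylates ribosomal RNA, lay the other way, lower in both KO libraries, with 102.4 and 104.7 TPM in WT and 92.5 and 101.4 TPM in KO (-0.10, SE 0.077). Rtf1, a transcription elongation factor, was at 66.9 and 68.9 TPM in WT and 68.9 and 67.1 TPM in KO.

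In the list of vesicle traffic and the cytoskeleton 9 of 11 tested members were higher and 2 lower, against 61.6% of all genes higher. Their median was 0.095, and 0 passed the adjusted threshold. The split depends on scaling and on the choice of list. Fam98b, described above as part of the tRNA ligase complex, is counted among the 9 and was -0.019 with median-of-ratios scaling. The genotypes did not overlap in 5 of the 11, 4 higher (19.2% of all genes) and 1 lower (10.5% of all genes). Zfyve19 (ENSMUSG00000068580.11, 119208617 to 119217049), a regulator of the abscission checkpoint and of cilia, had tight replicates. It was at 27.3 and 26.1 TPM in WT and 31.1 and 30.4 TPM in KO, 0.20 higher on the log2 scale (SE 0.082; limma adjusted p = 1.00). Rmdn3, a tether between mitochondria and endoplasmic reticulum, was at 33.6 and 35.7 TPM in WT and 36.9 and 38.9 TPM in KO. Stard9, a mitotic kinesin, was at 3.65 and 4.69 TPM in WT and 5.40 and 5.62 TPM in KO (0.34, SE 0.18). Snap23, a SNARE of membrane fusion, was at 45.1, 54.7, 57.1 and 49.5 TPM in library order, with overlap. Chp1, a calcineurin-like cofactor of sodium-proton exchangers, was the lower gene without overlap, at 66.1 and 65.3 TPM in WT and 65.2 and 60.4 TPM in KO. Vps39, a subunit of the vesicle tethering complex HOPS named after its values were seen, was high in KO 2 alone, at 36.5 TPM against 16.3 to 20.3 TPM in the other libraries.

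The list of metabolism, mitochondria and transport had 4 higher and 4 lower among 8 tested members, with a median of 0.007. It counts Aven, named here for another role, and Pla2g4b, whose values are uncertain as described below. Ivd, an enzyme of leucine breakdown, was at 61.3, 76.9, 64.6 and 63.5 TPM in library order, so that WT 2 alone was high. Aven, an inhibitor of apoptosis, was at 22.6 and 21.7 TPM in WT and 22.3 and 21.9 TPM in KO. Ganc, a neutral alpha-glucosidase, was at 8.85 and 7.96 TPM in WT and 7.82 and 6.95 TPM in KO (-0.17, SE 0.14).

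Chst14, an enzyme that sulfates dermatan chains of proteoglycans, was at 20.2 and 19.1 TPM in WT and 27.7 and 21.8 TPM in KO. Both KO libraries were higher (0.31, SE 0.14; limma adjusted p = 1.00), by 0.14 without KO 1. Proteoglycans of this kind are products of mesenchyme, whose marker sums given above were also highest in KO 1; their part was not tested. Tmem62, a transmembrane protein, was lower in both KO libraries, at 4.01 and 4.82 TPM in WT and 2.32 and 3.58 TPM in KO (-0.47, SE 0.23). Without KO 1 its difference was -0.24. It lies 4.91 Mb from Meis2, at the far end of the window.

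Jmjd7, Gm28042 and Pla2g4b overlap on the same strand, and Gm28042 runs across both of the others, so reads can be split among them and their values are uncertain. Jmjd7 (ENSMUSG00000098789.7, 120027483 to 120032594), a lysyl hydroxylase, was at 7.19, 13.5, 5.42 and 6.51 TPM in library order. Pla2g4b, a cytosolic phospholipase, was at 1.30, 6.96, 1.41 and 2.39 TPM in the same order, and Gm28042 at 1.39, 3.43, 1.55 and 1.98 TPM. All 3 were highest in WT 2. The Jmjd7 difference was -0.65 (SE 0.31; limma adjusted p = 1.00), and -0.24 without WT 2.

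**Figure D3:**
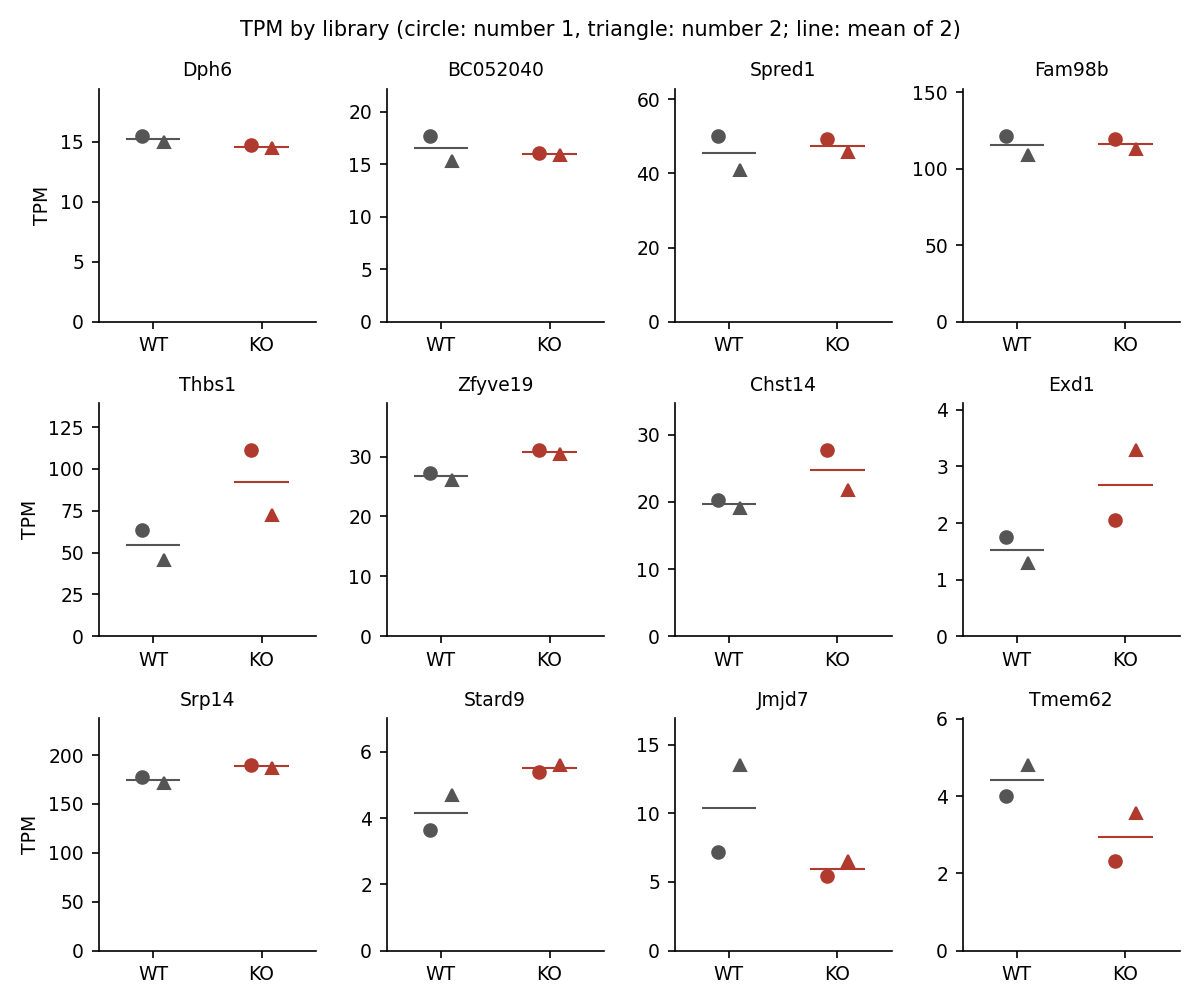
TPM (vertical axes, from 0) of 12 members in each library: circles are libraries numbered 1, triangles those numbered 2, grey is WT, red is KO and lines are means of 2. The top row holds 4 of the 7 tested members within 2 Mb, Dph6, BC052040, Spred1 and Fam98b, whose genotypes are close. The genotypes do not overlap in Dph6, nor in the 8 genes below the top row, and Jmjd7 is high in WT 2 alone. These 8 are a selection of members, so their number is not a rate. Of all genes, 19.2% lack overlap with KO above WT and 10.5% with KO below WT.

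There were 5 pairs of members head to head, with starts within 1 kb on opposite strands. Exd1, a component of the piRNA pathway in germ cells, and Chp1 start 70 bases apart, and their differences were 0.53 and -0.07. The stretch between their first exons is shown on the strand of Exd1 (GRCm38.p6), with capitals on CCAAT, a promoter element searched on both strands and found in 37.4% of all windows and 37.3% of member windows.
Exd1 and Chp1, chr2:119547628-119547696, minus strand: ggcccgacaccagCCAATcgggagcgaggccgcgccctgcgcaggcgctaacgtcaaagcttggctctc
Exd1 (ENSMUSG00000048647.9, 119516505 to 119547627) was at 1.75 and 1.29 TPM in WT and 2.05 and 3.29 TPM in KO, higher in both KO libraries (SE 0.27; limma adjusted p = 1.00), with 0.28 without KO 2. The difference was 0.01 for Dnajc17 and 0.20 for Zfyve19, 0.02 for Oip5 and 0.13 for Nusap1, 0.02 for Tmem87a and -0.17 for Ganc, and 0.09 for Lrrc57 and -0.11 for Haus2. The 2 genes of a pair were not tested against each other. Gene bodies overlap in these 4 pairs, and whether strand was used when the authors quantified reads: not given in the sources used here.

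Neuronal and muscle lists together held 14 members, of which 1 was at 0 in all libraries. The lists are broad and do not mark a cell type. They include Aqr, Chst14 and Snap23, described above by roles in splicing, proteoglycans and membrane fusion. Of the other 13, 9 were higher in KO 2 than in KO 1, and 4 (Snap23, Chst14, Gpr176 and Pak6) were higher in KO 1. KO 1 was the lowest and KO 2 the highest of the 4 libraries in 5 of them, Scg5, Disp2, Ryr3, Actc1 and Capn3. That order occurred in 11.6% of all detected members and in 10.2% of all genes tested. Ryr3 and Capn3 were not among the tested genes. The genotypes did not overlap in Ttbk2 and Chst14, higher in KO (19.2% of all genes tested), and in Aqr, lower in KO (10.5% of all genes tested). Gpr176 and Pak6, both under 0.5 TPM in every library, were named after their values were seen. Scg5, which encodes the neuroendocrine chaperone 7B2, was at 6.02, 6.92, 3.64 and 7.96 TPM in library order. Its difference was -0.21 (SE 0.35), -0.69 without KO 2 and 0.27 without KO 1. Disp2 and Ryr3, named after their values were seen with Capn3, had the same order of KO libraries. Disp2, a relative of the hedgehog release factor Dispatched, was at 0.87, 1.34, 0.66 and 2.18 TPM in library order. Ryr3, a calcium release channel, was at 1.03, 1.07, 0.57 and 1.20 TPM. Neuron markers, 11 of 13 higher in KO and none at 0 in all libraries, summed to 493 and 758 TPM in WT, 407 TPM in KO 1 and 1076 TPM in KO 2. KO 1 was lowest and KO 2 highest for the markers and for Scg5, Disp2 and Ryr3 alike, and the part of neurons in these values was not tested. Ttbk2, a kinase of cilium assembly, was at 7.76 and 7.28 TPM in WT and 7.79 and 8.86 TPM in KO.

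Actc1 (ENSMUSG00000068614.7, 114047282 to 114053548) was at 5.15, 4.72, 3.07 and 7.00 TPM in library order. The KO libraries lay on either side of the WT ones, so the difference of -0.06 (SE 0.36) became 0.43 without KO 1 and -0.55 without KO 2. Capn3, a muscle calpain, was at 0.86, 0.70, 0.64 and 1.48 TPM in library order. The other 9 muscle markers summed to 20.5 and 26.3 TPM in WT and 17.7 and 19.9 TPM in KO, highest in WT 2, while Actc1 and Capn3 were highest in KO 2. None of the 9 was at 0 in all libraries, and both that could be tested were lower in KO.

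**Figure D4:**
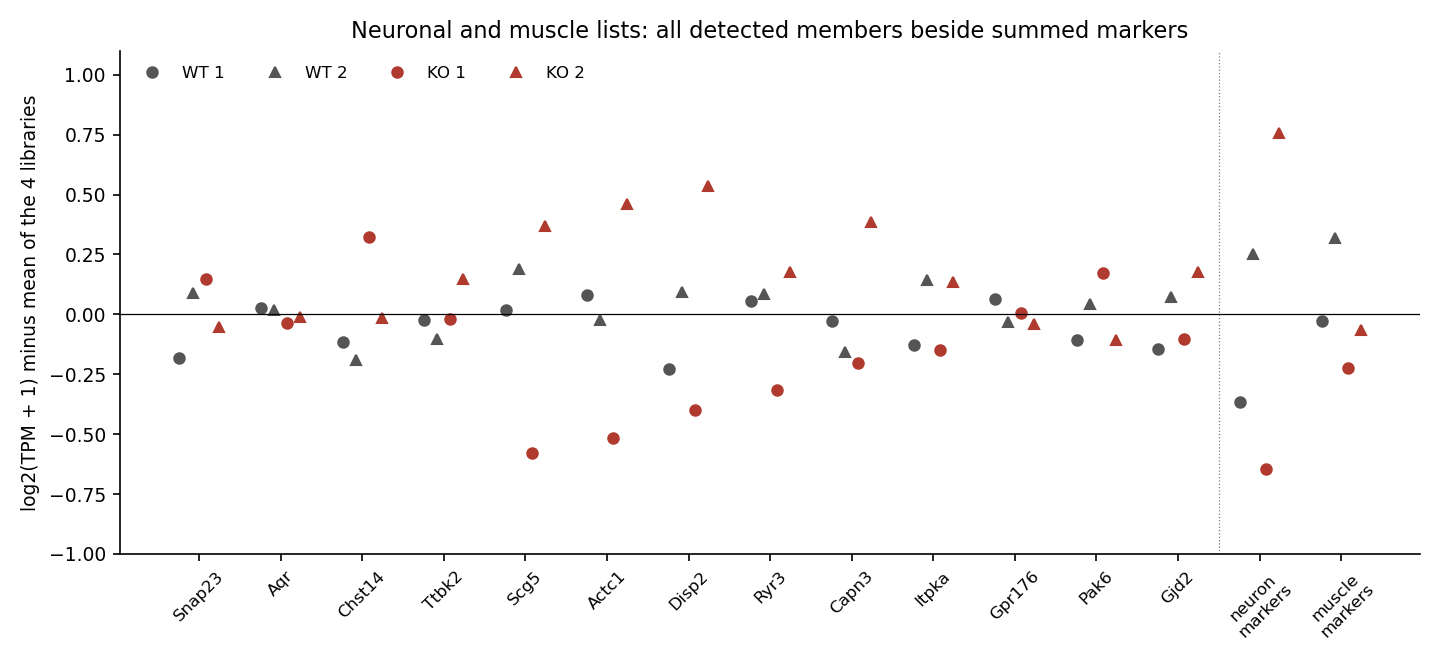
Level in each library as log2(TPM + 1) minus the mean of the 4 libraries (vertical axis) for all 13 detected members of the neuronal and muscle lists, in order of mean TPM, with the summed neuron markers and the summed muscle markers without Actc1 on the right. Grey is WT, red is KO, circles are number 1 and triangles number 2; KO 2 lies above KO 1 in 9 of the 13 and below it in 4, and 5 of the 13 share with the neuron markers the order of KO 1 lowest and KO 2 highest.

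The members below the filter were 32 of the 101. Of these 6 were listed at 0 in all 4 libraries and 26 had a mean under 1 TPM. They include all 9 olfactory receptor genes at the lower edge of the window, named Olfr1310 to Olfr1318, of which 3 were at 0 throughout and the highest, Olfr1310, reached 0.73 TPM in KO 2. Chrm5, a muscarinic receptor, and Tmco5b were also at 0 throughout. At the other end 14 members had a mean of at least 50 TPM and 35 a mean of 10 to 50 TPM. The summed level of all 101 members was 2103, 2105, 2184 and 2149 TPM in library order.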

How the data were processed

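Otic vesicle RNA of 2 WT and 2 Meis2 mutant samples was sequenced, and titles gave the groups. The authors deposited gene-level TPM; per the submitters' processing notes Salmon 0.9.1 and GRCm38 were used, and the annotation release and strand setting were not given in the sources used here. Since TPM hides the depth, it is unknown, and counting intervals are left out. Gene IDs were matched without version to GENCODE M21 (GRCm38), which gave coordinates and biotypes.

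Tests took in genes whose mean reached 1 TPM and used limma 3.58.1 (R 4.3.3) on log2(TPM + 1), which understates changes of low genes, with a genotype term alone, a variance trend on the mean, and two-sided p-values adjusted by Benjamini and Hochberg over all 14496 genes. With 2 libraries against 2 the smallest two-sided exact p would be 0.333. On simulated data (KO against WT, 14496 genes, 25 simulations) the fit called 37.5% of genes changed by 1 on the log2 scale and 83.1% of genes changed by 2. Each simulation changed 200 genes and drew noise for each library independently, and false calls averaged 7.8. Deviations of WT 1 and KO 1 correlated at 0.423 in the real libraries, so these rates need not hold for them. Distance is the gap between gene bodies. The members and lists were chosen with earlier results of these data known. Some members are not reported here. By rule, named genes are the 5 nearest per side, up to 8 per direction by p, the 4 most abundant and up to 3 per role list by level. Other members were named outside this rule for a promoter stretch, a difference of at least 0.5, a gene overlap or pair, or a level under the filter. The rest are said to be named after their values were seen. Alternatives were other pseudocounts (0.1 and 5 TPM), filters (none, 5 TPM), scalings, coding genes only, no variance trend, a replicate block, each library left out, and other definitions of member and distance. Leaving out members that overlap on the same strand was added after seeing the data.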

Additional observations from a re-analysis of the deposited data

How the results depend on the processing

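No member passed the adjusted threshold under any alternative. The median of the members, 0.006, was -0.019 with median-of-ratios scaling and -0.037 with quantile normalization, which lower the median of all genes from 0.035 to 0.006 and 0.001; leaving out a library gave -0.008 to 0.016. The number of higher members was 33 to 38 of 69 with a library left out. The correlation with distance was -0.17 without WT 1 and 0.24 without WT 2, the extremes with a library left out; the cause was not tested. It was 0.116 without members overlapping on the same strand. With no filter 95 members entered, 53 higher and 42 lower.

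Of 463 values of the 36 named and tested members under alternatives, 438 kept their direction and 25 did not. Reversals were Fam98b -0.019, Rtf1 -0.03 with median-of-ratios scaling, and Fam98b -0.021, Rtf1 -0.031 and Ndufaf1 -0.015 with quantile normalization. With a library left out, the direction turned at least once for BC052040 (-0.14 to 0.061), Knstrn (-0.073 to 0.055), Snap23 (-0.041 to 0.231), Rtf1 (-0.02 to 0.022), Aven (-0.031 to 0.027), Spred1 (-0.082 to 0.21), Fam98b (-0.067 to 0.092), Cdan1 (-0.337 to 0.013), Bmf (-0.155 to 0.025), Ivd (-0.26 to 0.062), Ndufaf1 (-0.088 to 0.162), Actc1 (-0.545 to 0.432), Nusap1 (-0.003 to 0.252), Scg5 (-0.685 to 0.266), Bub1b (-0.087 to 0.049). The cause was not tested.

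The replicate numbers are shared by the genotypes in the titles, but nothing says that they mark a common litter or day. Deviations of WT 1 and KO 1 from their group means correlated at 0.423 across 14496 genes. With the replicate number as a block 0 members and 0 of all genes passed the adjusted threshold, and the median stayed at 0.006. TPM without depth and 2 libraries per genotype limit what can be detected.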

Other observations

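The same window held 19 other genes of the table, all pseudogenes. Of these 9 were at 0 in all libraries and 1 was tested. For Gm21596, a processed pseudogene at 113919247 to 113920562, the values were 72.2 and 189.3 TPM (WT 1, WT 2) and 123.4 and 179.9 TPM (KO 1, KO 2). Its values were higher in the libraries numbered 2 than in those numbered 1, and the genotypes overlapped (log2 difference 0.35, SE 0.49). Since reads may be split with a parent gene, its level is uncertain.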
